A study of Mus musculus with 2 samples.

Results

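The genes described are long intergenic RNA genes, annotated as lincRNA, on chromosomes 1 to 19 of the mouse. They were kept where every transcription start site (TSS) lay over 5 kb from the TSS of any protein-coding gene, in the GENCODE vM21 annotation of the mm10 build. By this rule 4497 of 51229 annotated genes were members, and 712 further lincRNA genes fell within 5 kb of a coding start and were left out. A promoter was called open in a library when a peak of that library touched the 500 bp to either side of any TSS of the gene. The tissue was neural tube, from which brain and spinal cord form, taken from B6NCrl mouse embryos at 11.5 days with both sexes pooled. Its chromatin was probed by DNase-seq, in which the enzyme DNase I cuts accessible DNA and the cut sites are sequenced. There was 1 group with 2 libraries, labelled as biological replicates 1 and 2 and carrying the same donor label, so an SD over them may be technical. Both were run on HiSeq and NextSeq sequencers, and the labels name an additional HiSeq model for replicate 2. The tissue was taken whole, so a promoter open in fewer cells and one less open in each cell cannot be told apart.

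Long intergenic RNAs are transcribed by RNA polymerase II, spliced and capped like messenger RNAs, but are not translated into a known protein. Some act in the nucleus, as scaffolds of nuclear bodies or by silencing genes on the same chromosome, some are precursors of microRNAs, and for most no function is known. Their promoters are usually weaker and poorer in the dinucleotide CpG than those of coding genes, and many are used in few tissues, brain among them. An open promoter is accessible DNA and not a measure of transcription, and no RNA was measured.

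The peaks at the ends of the range are shown first because they differ in CpG, on which the results below turn. Each is the 150 bp window of the best promoter peak in replicate 1, read 5′ to 3′ on the strand of the gene from the RefSeq copy of GRCm38 (mm10), with each CpG in capitals. The 3 strongest members were 1700096K18Rik (plus strand, chr5:25529636-25529785), Gm33195 (plus strand, chr13:43864576-43864725) and Gm11527 (minus strand, chr11:95858776-95858925). The well-studied examples were Miat (minus strand, chr5:112228676-112228825) and the microRNA host Mir124a-1hg (plus strand, chr14:64587296-64587445). Of the members of lowest rank among those open in both libraries, the examples were Gm6471 (plus strand, chr7:142831396-142831545) and Gm28556 (minus strand, chr1:138191736-138191885). Not every window covers the TSS of its gene. The window centre lay at -302.5 bp from it for 1700096K18Rik, 323.5 bp for Gm11527, -75.5 bp for Miat, 243.5 bp for Gm6471 and 316.5 bp for Gm28556. For Miat and Gm6471 this TSS is not the most 5′ one of the gene. Another non-coding gene, 4833417C18Rik, has a start within 500 bp of that of Gm11527.
1700096K18Rik: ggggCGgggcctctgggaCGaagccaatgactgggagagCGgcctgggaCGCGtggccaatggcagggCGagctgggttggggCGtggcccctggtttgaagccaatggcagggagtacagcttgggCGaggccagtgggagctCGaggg
Gm33195: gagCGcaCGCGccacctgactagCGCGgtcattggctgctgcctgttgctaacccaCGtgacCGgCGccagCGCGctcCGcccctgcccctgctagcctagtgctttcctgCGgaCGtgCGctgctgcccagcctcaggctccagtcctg
Gm11527: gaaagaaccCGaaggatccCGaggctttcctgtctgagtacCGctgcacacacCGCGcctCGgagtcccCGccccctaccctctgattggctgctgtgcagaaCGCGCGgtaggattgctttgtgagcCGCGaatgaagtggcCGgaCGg
Miat: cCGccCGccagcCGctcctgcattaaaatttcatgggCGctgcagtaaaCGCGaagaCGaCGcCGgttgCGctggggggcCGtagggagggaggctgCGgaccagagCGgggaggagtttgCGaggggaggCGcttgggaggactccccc
Mir124a-1hg: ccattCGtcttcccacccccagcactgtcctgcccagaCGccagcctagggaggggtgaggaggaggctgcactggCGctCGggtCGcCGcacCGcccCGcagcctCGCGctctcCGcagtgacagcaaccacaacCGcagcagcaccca
Gm6471: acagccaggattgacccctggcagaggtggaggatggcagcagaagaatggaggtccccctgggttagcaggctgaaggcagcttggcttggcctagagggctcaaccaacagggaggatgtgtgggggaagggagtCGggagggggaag
Gm28556: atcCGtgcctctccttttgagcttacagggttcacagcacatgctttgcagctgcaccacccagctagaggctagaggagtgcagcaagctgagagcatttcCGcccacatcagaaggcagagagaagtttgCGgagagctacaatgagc
The strongest windows held 9, 14 and 14 CpGs, those of Miat and Mir124a-1hg held 15 and 12, and the weak ones held 1 and 3. The letters CCAAT, the CCAAT box, were present on either strand in all 3 of the strongest windows, with 3 matches in 1700096K18Rik, and in none of the other 4. In a different and longer window, the 300 bases around the most 5′ TSS, this box was no more frequent at open members. It was in 33.8% of members open in both libraries, 39.4% of members closed in both and 38.6% of coding genes. The GC box, searched as GGGCGG on both strands, had 1 match in each of the 3 strongest windows, in Miat and in Mir124a-1hg, but also in the weak peak of Gm28556. The strongest and weakest windows were chosen by rank, and those of Miat and Mir124a-1hg were picked from the well-studied members. All of them illustrate and do not test the relation to CpG.

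Long intergenic RNA genes had open promoters far less often than coding genes. An open promoter was found for 1177 of the 4497 genes (26.2%) in replicate 1 and for 1001 (22.3%) in replicate 2, and the mean was 24.2% ± 2.77 (SD, n = 2 libraries). Among 20807 protein-coding genes the shares were 70.9% in replicate 1 and 70.1% in replicate 2, with a mean of 70.5% ± 0.581. The difference was -44.7 percentage points in replicate 1 and -47.8 in replicate 2. Its mean was -46.3 ± 2.19, which is many times its spread over the libraries. Over all 46732 annotated genes that are no members, 40.9% were open in replicate 1 and 39.9% in replicate 2. With 1 group of 2 libraries no test across samples was made.

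Both libraries called the promoter open for 868 members (19.3%), against 68.9% of coding genes and 38.4% of all genes that are no members. A further 309 members were open in replicate 1 alone and 133 in replicate 2 alone, and 3187 (70.9%) were closed in both. The lincRNA genes left out for lying within 5 kb of a coding start were open in 60.0% and 57.2% of cases in replicates 1 and 2. Antisense RNA genes were open in 42.9% and 41.1% of cases, genes of the TEC class (annotated transcripts awaiting experiment) in 18.1% and 15.6%, and processed pseudogenes, copies of messenger RNAs that mostly lack a promoter, in 4.10% and 4.01%. The members thus lay between the TEC class and antisense genes in both libraries.

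**Figure D1:**
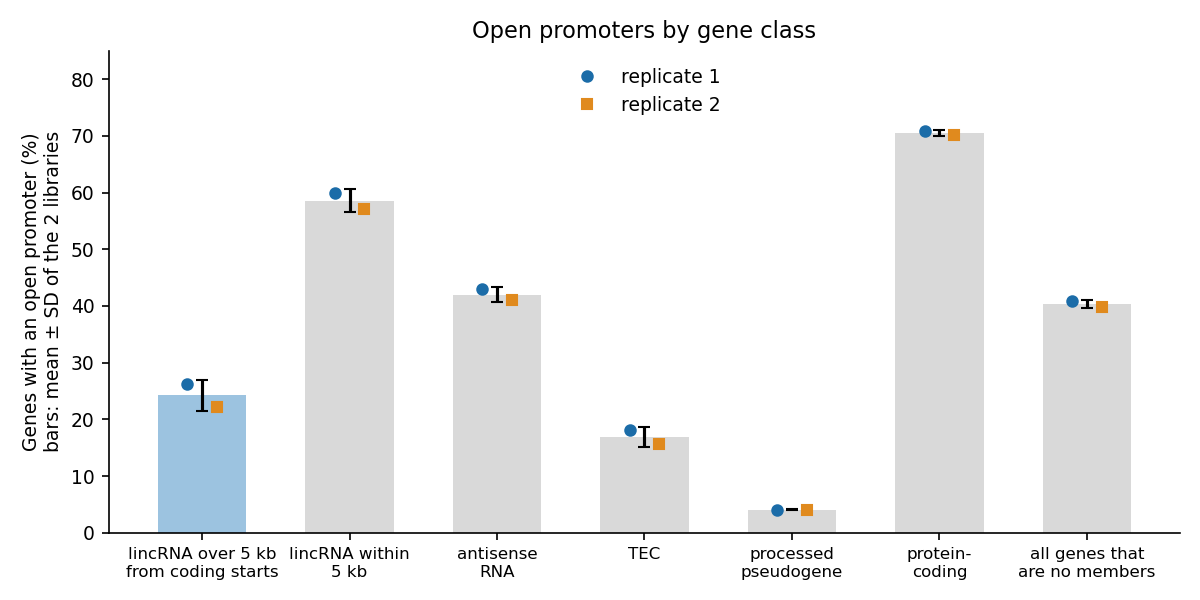
Share of genes with an open promoter (%) for long intergenic RNA genes over 5 kb from coding starts (blue bar) and for other gene classes (grey bars). Bars are the mean and error bars the SD of 2 libraries, circles are replicate 1 and squares replicate 2. The members sit at 26.2% and 22.3%, and protein-coding genes at 70.9% and 70.1%.

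Part of the sequence far from coding starts lies near a peak in any case. Of the 2044 Mb of sequenced positions on these chromosomes over 5 kb from a coding TSS, 5.58% lay within 500 bp of a peak in replicate 1 and 4.08% in replicate 2. Members with a single TSS, for which the same window applies once, were open in 22.3% and 19.2% of 3565 cases, which is above that share in each library. Genes with more TSSs offer more windows: coding genes had a mean of 4.34 TSSs and members 1.38. Among genes with 1 TSS, 16.2% of members were open in both libraries, against 38.5% of 4406 coding genes. With 3 or more TSSs the shares were 37.1% of 342 members and 85.1% of 12648 coding genes, so members were lower at each number of TSSs.

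The peaks at open members were also lower in rank. Each peak carries a score that the authors deposited, a whole number with no stated meaning, so it was used only as a rank within its own list, where top 0% is the highest score. The best promoter peak of an open member stood at a median of top 35.3% in replicate 1 and top 34.0% in replicate 2, against top 4.03% and top 5.16% for open coding genes. The median scores behind these ranks were 60 and 37 for members, against 129 and 108 for coding genes. A peak in the top 10% of its list was present at 16.8% and 13.9% of open members, against 75% and 71.9% of open coding genes. Of the 868 members open in both libraries, 130 (15.0%) were in the top 10% of both lists and 127 (14.6%) in the lower 50% of both, against 72.3% and 1.92% of coding genes open in both. Hotspots, the broader accessible regions of the same libraries, had a median length of 587 bp and 446 bp at members, against 1573 bp and 1171 bp at coding genes.

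The libraries ranked the members alike. Over the 868 members open in both, Pearson's r of the rank was 0.889 and Spearman's rho was 0.927, a description over genes that share the libraries. For 754 of them (86.9%) the best peaks of the libraries overlapped. Of the members in the top 10% of the list of replicate 1, 197 of 198 were open in replicate 2, and of those in the top 10% of replicate 2, 137 of 139 were open in replicate 1. In the lower 50% of the list the counts were 152 of 403 (37.7%) and 211 of 331 (63.7%). The same shares of coding genes were 99.96% and 100% for the top 10% and 50.3% and 65.7% for the lower 50%, so members differed from coding genes by over 10 percentage points only for the lower peaks of replicate 1. Members open in 1 library alone had low ranks there, at a median of top 67.1% in replicate 1 and top 78.1% in replicate 2, against top 23.1% and top 28.6% for members open in both. Replicate 1 held 199653 peaks and replicate 2 held 154324, and the part of this difference in the calls of 1 library was not tested.

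**Figure D2:**
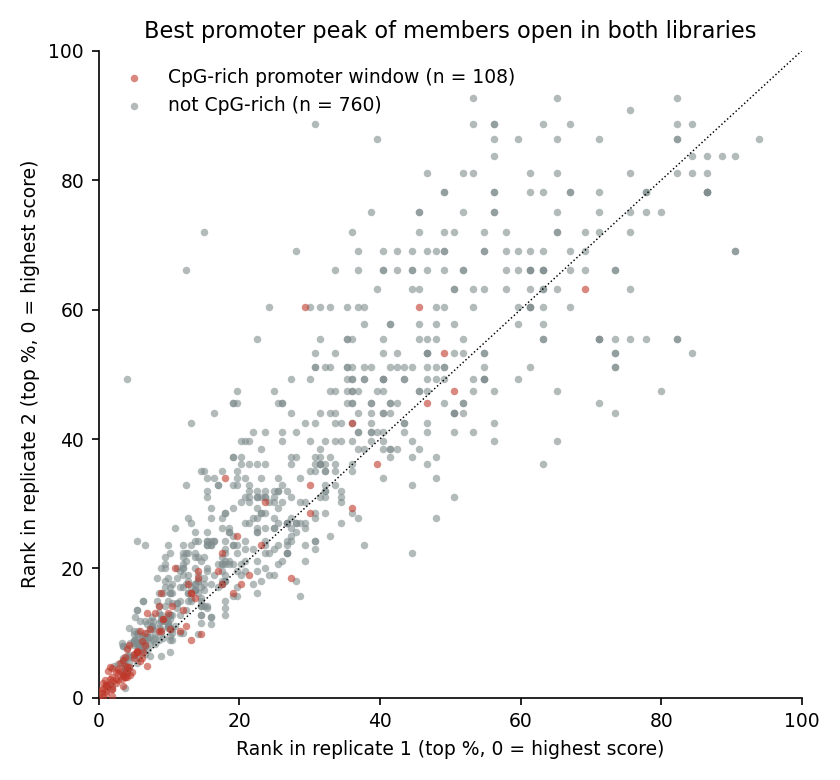
Rank of the best promoter peak in replicate 1 (x axis) and replicate 2 (y axis), in percent of the library's own peak list with 0 as the highest score, for 868 members open in both libraries. Each point is 1 gene, red for a CpG-rich promoter window (108 genes) and grey for the others (760 genes), and the dotted line marks equal rank. The points follow the line, and the red points crowd at the strong end.

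Promoter sequence was examined in a window of 250 bases before and 50 bases from the most 5′ TSS of each gene, read from GRCm38. A window was called CpG-rich when its GC content was at least 50% and the ratio of observed to expected CpG at least 0.6. Of all members, 172 (3.82%) were CpG-rich, against 42.5% of coding genes. Among members open in both libraries 108 (12.4%) were CpG-rich, against 57 (1.79%) of those closed in both. Taken the other way, 62.8% of CpG-rich members and 17.6% of the other 4325 were open in both libraries. CpG-rich open members also had the higher ranks, with medians of top 5.87% and top 7.39%, against top 38.7% and top 38.5% for open members that were not CpG-rich.

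The open share followed the CpG ratio in steps. From the lowest to the highest of 6 bins, with lower edges of 0, 0.1, 0.2, 0.4, 0.6 and 0.8, 7.81%, 10.8%, 21%, 33.6%, 49.7% and 68.5% of members were open in both libraries. In the same bins the shares of coding genes were 12.8%, 26.0%, 47.6%, 84.2%, 96.6% and 99.0%. Members were lower than coding genes in every bin, and 1 member had no defined ratio. The ratio is that of the most 5′ TSS, while a peak at any TSS made a gene open, and coding genes have more TSSs. Of coding genes, 42.5% were CpG-rich at the most 5′ TSS and 55.9% at any TSS. The part of this in the gap between members and coding genes was not tested. Of the 20 members of highest rank 18 were CpG-rich, of the 100 of highest rank 58, and of the 100 of lowest rank 1.

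**Figure D3:**
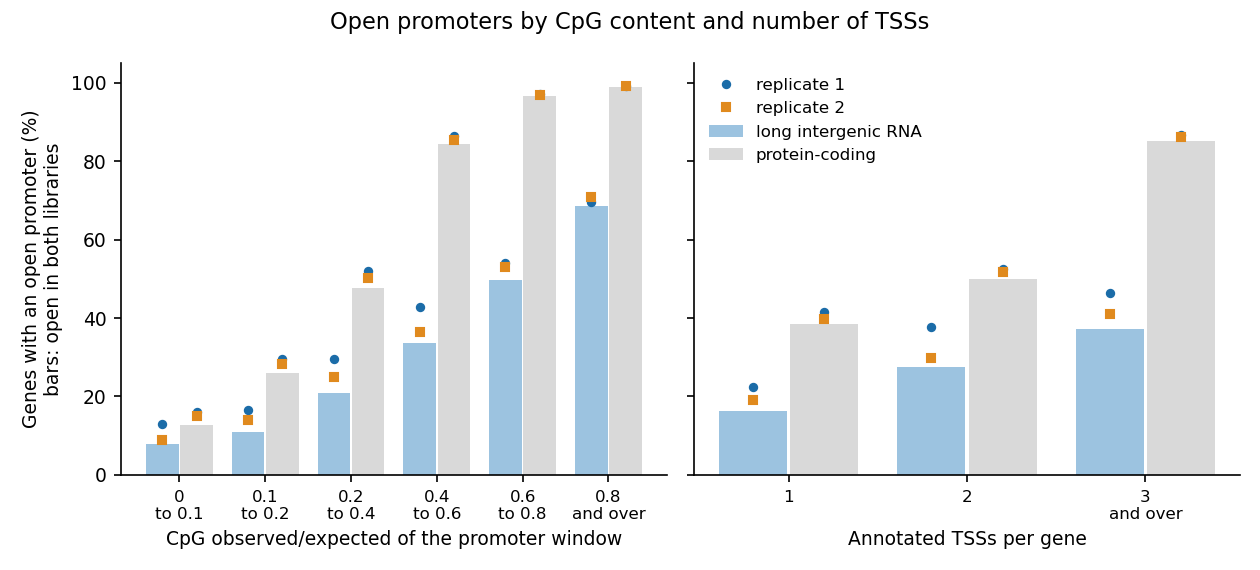
Share of genes with an open promoter (%) by the CpG ratio of the promoter window (left) and by the number of annotated TSSs (right), for long intergenic RNA genes (blue bars) and protein-coding genes (grey bars). Bars are genes open in both libraries, circles replicate 1 and squares replicate 2. Members reach 68.5% in the highest CpG bin, where coding genes reach 99.0%. The CpG ratio is that of the most 5′ TSS, while the open call counts any TSS.

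Other sequence features differed between open and closed members as well. Repeats covered over 50% of the window in 35 (4.03%) of the members open in both libraries, against 632 (19.8%) of those closed in both. The GC box was found in 22.1% of promoters of members open in both libraries, 4.52% of members closed in both and 43.7% of all coding promoters. Within CpG-rich promoters it was found in 69.4% of members open in both and 75.8% of coding genes. An E-box preferred by proneural transcription factors, searched as CAGCTG, its own reverse complement, was found in 23.6% of members open in both, 16.9% of those closed in both and 15.5% of coding promoters. The letters of SOX factors (ACAAAG or ACAATG) were in 36.1%, 39.2% and 25.4% of these promoters and those of homeodomain factors (TAATTA) in 7.03%, 7.47% and 5.21%, on either strand, so neither was more frequent at open than at closed members. The TATA box, searched as TATAAA on both strands, was found in 12.7%, 18.9% and 12.7% of these promoters, so it was no more frequent at open members than at coding genes. CAGCTG was in 11.1% of CpG-rich and 25.4% of other members open in both. It was not alone in being more frequent at open than at closed members. So were CACGTG, another E-box (8.41% against 5.27%), CCGGAAG of ETS factors (5.76% against 2.82%) and TGACGTCA, the CRE (1.84% against 0.533%). The letters of NRF1 (GCGCATGC) and YY1 (AAGATGGC) were not. Letters from the site of REST, a repressor of neuronal genes outside neurons (GGACAGCG), were in 10 of 868 members open in both (1.15%), 4 of 3187 closed in both (0.126%) and 1.48% of coding promoters, searched on both strands. By CpG class they were in 3.70% of CpG-rich and 0.789% of other members open in both, against 2.52% and 0.702% of coding genes. The 10 members include Gm33195, Gm9530 and C030034I22Rik, which are among the 20 of highest rank, but also Gm4425 at top 69.1% and top 63.2%. Such matches describe letters and not bound factors.

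The best peak lay less tightly on the TSS at members than at coding genes. Its centre was within 150 bp of the TSS for 50.5% of open members in replicate 1 and 52.5% in replicate 2, against 79.6% and 81.0% of open coding genes. It was over 300 bp away for 26.9% and 26.9% of open members, against 8.72% and 8.35%. CpG-rich members were closer to the coding pattern, with 72.1% and 69.6% within 150 bp. The centre lay upstream of the TSS for 59.2% and 59.8% of members and 68.8% and 68.0% of coding genes. Members have fewer annotated TSSs, and the part of the annotation in this spread was not tested.

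**Figure D4:**
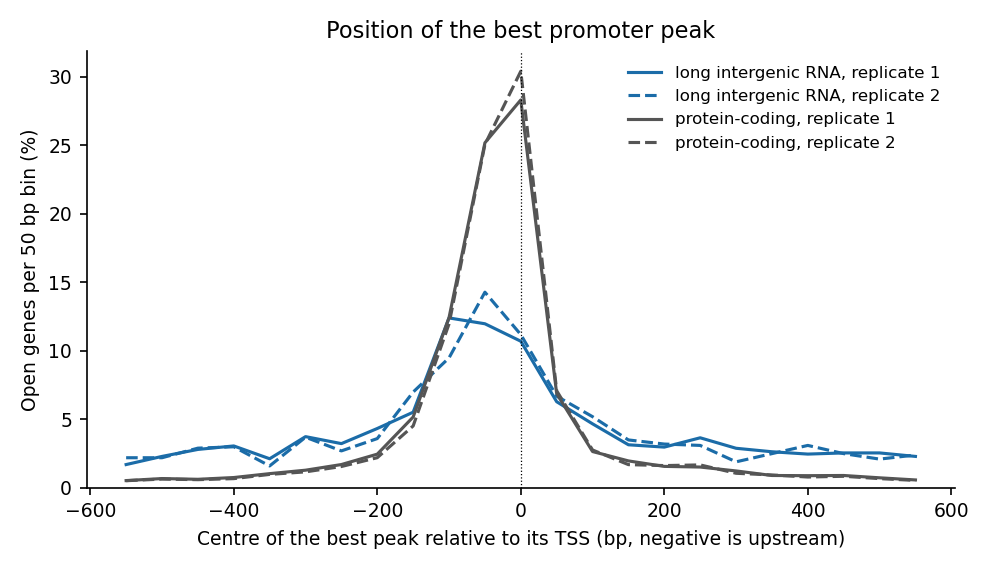
Distance from the TSS to the centre of the best promoter peak (bp, negative is upstream) against the share of open genes per 50 bp bin (%), for long intergenic RNA genes (blue) and protein-coding genes (grey) in replicate 1 (solid) and replicate 2 (dashed). Coding genes form a sharp peak at the TSS, and members a lower, broader one with flat sides.

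Few of the genes of highest rank carry a name other than a clone or model symbol. 1700096K18Rik had scores of 147 in replicate 1 and 136 in replicate 2 (top 0.0418% and top 0.188%), and lay 13.9 kb from Cct8l1. Gm33195 scored 142 and 137 (top 0.631% and top 0.138%) and Gm11527 scored 143 and 131 (top 0.440% and top 0.701%). Only these 3 members were in the top 1% of both lists. Among the rest of the 20 is Snhg6, a host of small nucleolar RNAs, which scored 137 and 121 (top 1.90% and top 2.54%). 5430416N02Rik, 13.1 kb from the vesicle coat gene Sec31a, scored 138 and 123. Gm40513 and B230208H11Rik were the 2 of the 20 without a CpG-rich window at the most 5′ TSS. RefSeq, with its predicted transcripts, places a coding start within 500 bp of 2 of these 20 and of 33 of the 868. The part of such starts in the open calls was not tested.

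Of 62 well-studied long RNA genes listed, 23 were members, and 19 of these were open in both libraries, against 19.3% of all members and 38.4% of all genes that are no members. They had a median of 4 TSSs and up to 13, and 14 of the 16 with 3 or more TSSs were open in both, against 37.1% of all members with that many. Of the 23, 6 had a CpG-rich window at the most 5′ TSS, and Miat was not among them. The strongest was 1700020I14Rik, the mouse Cyrano RNA, which promotes the destruction of a microRNA, with scores of 137 in replicate 1 and 118 in replicate 2 (top 1.90% and top 3.19%). Neat1, the RNA on which paraspeckles are built, scored 129 and 114 (top 4.03% and top 4.0%), and Malat1, an abundant RNA of nuclear speckles, scored 125 and 82 (top 4.96% and top 10.3%). The peak centres of Neat1 lay at -432.5 bp and -452.5 bp from its TSS. Frmd8os and Gm28006, other non-coding genes, have starts within 500 bp of a Neat1 TSS. Miat, a nuclear RNA of neurons, scored 130 and 111 (top 3.77% and top 4.60%), at peaks that lay 220 bp apart in the libraries. All of these stood well above the median open member in both libraries.

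C130071C03Rik, a host of miR-9, scored 132 and 107 (top 3.28% and top 5.34%), and Mir9-3hg scored 120 and 103 (top 6.11% and top 6.09%). The miR-124 hosts Mir124-2hg and Mir124a-1hg scored 123 and 89, and 118 and 92. Rmst, an RNA known in human cells as a partner of SOX2 in neurogenesis, scored 114 and 79 (top 7.52% and top 11.1%) and lay 551 kb from its nearest coding gene Nedd1. The best peaks of Mir124-2hg and Rmst lay at an internal TSS and not at the most 5′ one. Mir124a-2 starts within 500 bp of a TSS of Mir124-2hg, and Mir135a-2 within 500 bp of a TSS of Rmst. Mir155hg, known from immune cells, scored 81 and 58 (top 21.4% and top 19%), and Mir17hg, the host of a cluster that drives proliferation, scored 58 and 18 (top 36.9% and top 69.0%).

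Among imprinted members, Meg3, transcribed from the maternal chromosome, scored 108 and 64 (top 9.16% and top 16.2%). Mirg, the microRNA precursor of the same domain, scored 84 and 38 (top 19.7% and top 33.0%), and H19 scored 76 and 52 (top 24.3% and top 22.4%). The Mirg peak lay at an internal TSS, not at the most 5′ of its 11, and several microRNA genes start within 500 bp of a Mirg TSS. Pvt1, the neighbour of Myc, scored 94 and 84, and 2900097C17Rik, the mouse Norad RNA that binds Pumilio proteins, scored 94 and 69. Lncenc1, known from embryonic stem cells, scored 102 and 59, and Carmn, known from cardiac mesoderm, 91 and 74.

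The 4 exceptions were Hotair, Trp53cor1, Platr4 and Platr10. Hotair, in the HoxC cluster, had a peak of score 58 (top 36.9%) in replicate 1 and none in replicate 2. Trp53cor1, a target of p53 beside Cdkn1a, had a peak of score 43 (top 53.3%) in replicate 1 and none in replicate 2. Platr4 and Platr10, named for pluripotent stem cells, were closed in both libraries. No peak says only that none was called at this depth, which is unknown.

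**Figure D5:**
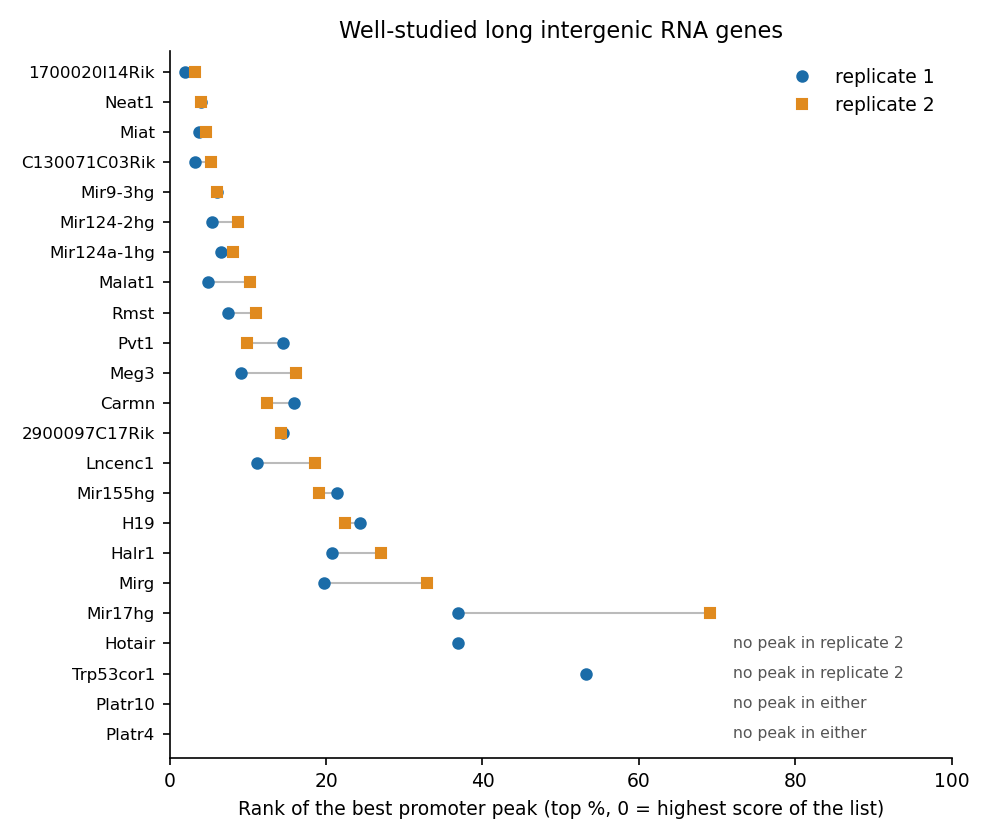
Rank of the best promoter peak (x axis, percent of the library's own peak list, 0 is the highest score) for the 23 well-studied members, one gene per line, in replicate 1 (circles) and replicate 2 (squares), joined by a grey line. The genes 1700020I14Rik, Neat1 and Miat stand at the strong end, and 4 genes lack a peak in 1 or both libraries.

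The coding genes nearest to the 868 members open in both were 714 different genes, at a median distance of 56.0 kb, against 79.3 kb for members closed in both. These neighbours were themselves open in both libraries for 721 members (83.1%), against 81.6% for members closed in both. Counted in each library, the nearest coding gene was open for 86.7% of open and 83.2% of closed members in replicate 1, and for 82.9% of open and 83.2% of closed members in replicate 2. The sign of the difference between open and closed members was not the same in the libraries. For the 721 members with such a neighbour, the member's own peak ranked above that of the coding gene in 94 cases, by mean rank. Where the neighbour was not open in both libraries, no ranks were compared. Members over 200 kb from any coding start were open in both libraries in 13.3% of cases, against 23.0% of those at 5 to 10 kb. The farthest of the members open in both libraries was C130073E24Rik, 2073 kb from Tenm3, which scored 91 and 42 (top 16.0% and top 29.4%).

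Genes of families of developmental regulators were the nearest coding gene of 80 members open in both (9.22%), against 175 of those closed in both (5.49%). These families, such as Hox, Sox, Pax and Irx, make up 1.86% of coding genes. The 80 members had 57 different regulators as neighbours, so some regulators were counted for several members. Among members open in both, the share was 4.63% for the 108 with a CpG-rich window and 9.87% for the other 760. Irx3, a transcription factor of neural tube progenitors, was the nearest coding gene of 7 members, of which 6 were open in both, the most for any coding gene. Next came Cd83 and Zfp516, both outside these families, with 5 of 10 and 5 of 11 members open in both. Gm36843 led the Irx3 members with scores of 110 in replicate 1 and 80 in replicate 2, 195.5 kb from Irx3. Gm36380, at 7.67 kb, scored 93 and 63. The other four, Gm36670, Gm28511, Gm36325 and Gm28516, scored 81, 74, 36 and 50 in replicate 1 and 41, 28, 32 and 20 in replicate 2. Each of the 6 had a peak of its own, and at Gm36325 the best peaks of the libraries were different ones, 940 bp apart.

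Several other members beside regulators were open in both libraries. 1700064M15Rik, 64.4 kb from the forkhead gene Foxn3, scored 137 and 127, and 4632428C04Rik, 55.7 kb from Hes1, the Notch effector that maintains progenitors, scored 129 and 115. Gm9979, 24.9 kb from the neural crest factor Tfap2a, scored 122 and 101. Gm14424, near Hoxd3, scored 121 and 91, and Gm53, near Hoxb9, 108 and 87. 9030622O22Rik, 5.26 kb from the floor plate factor Foxa2, scored 88 and 55. Paupar, an RNA known to act with its neighbour Pax6 in mouse neural cells, scored 85 and 50 (top 19.1% and top 23.6%) at 7.56 kb. These scores belong to different peaks, 1000 bp apart, at 452.5 bp from its TSS in replicate 1 and at -547.5 bp in replicate 2. Tbx3os2, 11.0 kb from Tbx3, scored 84 and 48. Paupar, Tbx3os2 and the last 4 of the Irx3 group were named after their values were seen.

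Among members open in 1 library alone, B130011K05Rik had the highest score in replicate 1, 106 (top 9.80%), and Gm42555 in replicate 2, 109 (top 4.99%). Their peak centres lay at -558.5 bp and 572.5 bp from the TSS, close to the edge of the search window. Gm44946, 9.43 kb from Nr2f2, scored 98 in replicate 2, with its peak centre at -540.5 bp. Each of these genes had a hotspot at the promoter in the other library too, of 1186 bp, 941 bp and 805 bp in turn. The nearest peak centre there lay 659 bp, 593 bp and 580 bp from the TSS, so those peaks fell outside the search window. Only 12 of the 309 members open in replicate 1 alone had a hotspot at the promoter in replicate 2, and 14 of the 133 open in replicate 2 alone had one in replicate 1. Of the 3187 closed members, 1015 (31.8%) had no peak centre within 10 kb in either library.

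At the 5 kb limit itself, AW121686 was just inside at 5002 bp from Tcf20 and open in both libraries (top 25.5% and top 20.7%), Gm37552 at 5027 bp was open in replicate 1 alone and Gm49749 at 5030 bp in neither. Just outside, Gm15729 at 4987 bp and Mir142hg at 4964 bp were closed in both libraries, and Gm26669 at 4960 bp was open in replicate 1 alone. The labelled tissue was checked on coding genes. All 12 neural markers on these chromosomes, such as Sox1, Pax6 and Tubb3, had an open promoter in both libraries. Among 26 markers of other cell types 5 were open in both libraries, among them Actc1 of muscle, Kdr and Pecam1 of vessels and Myod1 of muscle precursors. Closed in both were the globin genes Hba-a1 and Hbb-bs of red cells, Ptprc of blood cells, Cdh5 of vessels and Alb of liver. The part of those other cells in the open promoters of members was not tested.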

How the data were processed

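Peaks and hotspots of 2 DNase-seq libraries of 1 group were used as deposited, each called by the authors in its own library on mm10, per the file headers and names. The peak value is a whole-number score deposited by the authors. The hotspot value is a −log10 q-value deposited by the authors, used only to read the file. The sources used here name neither the caller nor its threshold, and the depth is unknown, so no interval that needs depth was computed. Rows repeating a position were removed, 45 in replicate 1 and 22 in replicate 2, leaving 199653 and 154324 peaks of 150 bp.

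Gene starts came from GENCODE vM21 and sequence from the RefSeq copy of GRCm38. A promoter was open when a peak shared 1 bp with the 500 bp to either side of a TSS, and its best peak was that of highest score. Ranks are percentiles within a list, with ties sharing their mean. The nearest coding gene is that with the closest TSS. Overlap calls were tested on simulated peaks. Shares are given per library, with the mean and SD over 2 libraries and no p-value. Analysis used Python 3.11.15, pandas 2.3.3 and numpy 2.4.6.

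The genes, lists and motifs were chosen with earlier results of these data known. Named are the well-studied members, the 20 of highest rank, the 5 strongest in each library alone, the 20 of highest rank beside regulators, the 5 lowest and the 5 farthest, from which the text gives examples. Alternatives covered the window, the peak threshold, hotspots, the TSS set, the distance limit, exon number and each library alone. Some items that these rules name are not reported here.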

Additional observations from a re-analysis of the deposited data

How the results depend on the processing

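In total 13 alternatives were run on 5 results, and no difference changed its sign. The number of members open in both libraries kept within 1.5 times of 868 under every alternative that gives it. The mean open share moved by more than its SD with 200 bp to either side of a TSS (19.2%), with 1000 bp (29.1%) and with the higher 50% of peaks (16.0%). The difference from coding genes moved to -48.9 points with 200 bp, -42.9 with 1000 bp, -51.2 with the higher 50% of peaks and -42.3 at the most 5′ TSS only. The median rank moved to top 35.9% with 200 bp, 35.6% by the peak centre, 20.7% with the higher 50% of peaks, 32.2% with equal numbers of peaks, 36.1% for members over 10 kb from a coding TSS and 35.6% for genes with several exons. Its lower values with fewer peaks follow from the loss of the weaker ones. The share with an open nearest coding gene, 84.8% as a mean, moved to 78.7% at the most 5′ TSS only. The cause of the other moves was not tested. Leaving out each library in turn gave open shares of 22.3% to 26.2%, differences of -47.8 to -44.7 points, median ranks of top 34.0% to 35.3% and nearest-gene shares of 82.9% to 86.7%. The count open in both needs both libraries, and hotspots were not ranked by their deposited value. In alternatives added after the data were seen, 15.2% of members open in both were CpG-rich at any TSS and 11.7% of those with 1 TSS. Regulators were the nearest coding gene of 8.64% of those with 1 TSS and made up 7.98% of the 714 different nearest genes. No paired analysis was possible because there is 1 group. With 2 libraries of unknown depth, a closed call shows only that no peak was called.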

Other observations

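Of the well-studied list, 32 further long RNA genes were found that are no members, because a coding start lay within 5 kb or because the annotation gives them another class, and 28 were open in both libraries. Crnde scored 146 in replicate 1 and 122 in replicate 2, Snhg1 146 and 126, and Gas5, a host of small nucleolar RNAs 80 bp from a coding start, 142 and 133. Tug1, which lies 86 bp from a coding start, scored 142 and 129. Sox2ot, in which the gene Sox2 lies, scored 109 and 62, and Kcnq1ot1, which silences imprinted neighbours, scored 119 and 96. The Hox and homeobox neighbours Hotairm1, Hottip and Dlx6os1 scored 137 and 132, 89 and 57, and 65 and 22. Fendrr had a peak of score 95 in replicate 1 and none in replicate 2. Rian, Snhg14 and Mir142hg were closed in both libraries.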
